A study of Mus musculus with 10 samples.

Results

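Nnt and 9 other genes of mitochondrial NADPH supply and use were followed through whole-heart RNA sequencing of female mice given doxorubicin. The 10 genes were selected on Nnt's measured difference in count between the 2 groups of these hearts, so their fitted differences, intervals and calls are given as a description that supports nothing, and no p-value is printed for them. They are Nnt, Idh2, Me3, Mthfd2, Mthfd2l, Glud1, Nadk2, Gsr, Txnrd2 and Prdx3, 10 of the 78298 genes in the deposited table. All 10 had enough counts to be tested. Nnt transcript averaged 49.8 ± 11.6 CPM, read counts scaled to a common library size, in the wild-type-labelled hearts and 292 ± 27 CPM in the knockout-labelled hearts (SD, n = 5 each). For the other 9 genes the values of both groups overlapped.

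The wild-type-labelled group held 5 hearts. The other 5 carried a germline knockout of p38δ by their label; this kinase answers to cell stress, and its gene is Mapk13. Both groups were described as on a C57BL/6J background. Every mouse had received doxorubicin, an anthracycline cancer drug that injures heart muscle, once at 30 mg/kg into the peritoneum, and hearts were taken 72 h later. Untreated hearts are not analysed here, so nothing below measures the effect of the drug. The knockout was present in the whole body. Wild type titles begin with DOXF and knockout titles with S, and a cohort or batch that follows these titles cannot be told apart from genotype.

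NADPH is the reductant with which the mitochondrial matrix regenerates glutathione and thioredoxin, which in turn serve the enzymes that remove hydrogen peroxide. Nicotinamide nucleotide transhydrogenase, the product of Nnt, sits in the inner membrane and uses the proton gradient to pass hydride from NADH to NADP+. Other matrix sources are the NADP-linked isocitrate dehydrogenase Idh2, the malic enzyme Me3, the folate enzymes Mthfd2 and Mthfd2l, which can use either NAD+ or NADP+, and glutamate dehydrogenase Glud1. C57BL/6J mice carry a deletion of several internal Nnt exons, and the mouse reference genome was made from this strain.

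The bases of 1 junction of the reference transcript are shown, because the missing exons are taken to lie there. That place is assumed from background knowledge of the full-length protein and was not read from any file. Nnt (ENSMUSG00000025453) lies on the minus strand of chromosome 13, from 119470859 to 119566380 on GRCm39. Its canonical transcript has 17 exons and 835 codons. Exon 7 (119518212 to 119518399) is joined across an intron of 6901 bases to exon 8 (119511165 to 119511310), and both are coding. The last 30 bases of exon 7 are in lower case and the first 30 of exon 8 in capitals, read 5′ to 3′ along the transcript from the GENCODE release 39 sequence.
Nnt exon 7 to exon 8: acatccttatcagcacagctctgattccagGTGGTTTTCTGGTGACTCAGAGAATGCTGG
Exons absent from the reference annotation can take no counts, and counts per gene do not show which exons were read. Which Nnt allele each heart carried was therefore not read here.

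Library 1 labelled wild type stood apart from the other 9 and touches most values below. Wild type libraries held 22082289 to 40627138 counts in total, and knockout libraries 21403189 to 33477767. Heart muscle markers were present throughout, with Myh6, the main adult cardiac myosin, between 5021 and 24290 CPM. In wild type library 1 the 10 ventricular cardiomyocyte markers summed to 26961 CPM, against 35878 to 74110 CPM elsewhere. Its 10 airway and alveolar markers summed to 1133 CPM, against 96.6 CPM in wild type library 3 and 0.428 to 2.15 CPM in the other 8. It was also the highest library for atrial, skeletal muscle, fat, macrophage, mesothelial and fibroblast marker sums. The remaining hearts were not alike in every sum either. Without library 1, fibroblast markers summed to 749 to 896 CPM in wild type and 660 to 713 CPM in knockout libraries. Mesothelial markers summed to 38.8 to 53.5 and 20.1 to 39.8 CPM. The atrial sum was 159 CPM in wild type library 2. Apart from the fibroblast sum, the groups overlapped in every marker sum. Knockout library 4 had the highest ventricular sum. Transcripts of mitochondrial DNA made up 23% of counts in wild type library 1 and 28.3% to 30.9% in the others. Mapk13 had 292, 5, 2, 1 and 4 counts in the wild type libraries and 12, 10, 10, 15 and 9 in the knockout libraries, so the targeted gene did not check the labels. In bulk tissue, fewer cells of a type and less RNA per cell cannot be told apart.

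Nnt stood at 30.4, 52.5, 50.4, 54.4 and 61.3 CPM in wild type libraries 1 to 5. It stood at 286, 294, 319, 313 and 250 CPM in knockout libraries 1 to 5. The groups did not overlap, as for 0.88% of all tested genes with every knockout library above every wild type library. The lowest knockout library was 4.09 times the highest wild type library. These values rest on 1130 to 2381 counts per wild type library and 6701 to 9637 per knockout library. The fitted log2 fold change was 2.55 (SE 0.17), with a 95% interval from 2.17 to 2.94, or 4.5-fold to 7.68-fold. Without wild type library 1 and knockout library 4 it was 2.40 (SE 0.09). Nnt was called in every fit that tested it, beside 0.353% of the 16700 tested genes called by edgeR in either direction and 0.24% called higher in the knockout. It was chosen for this difference, so nothing is read from its call.

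**Figure D1:**
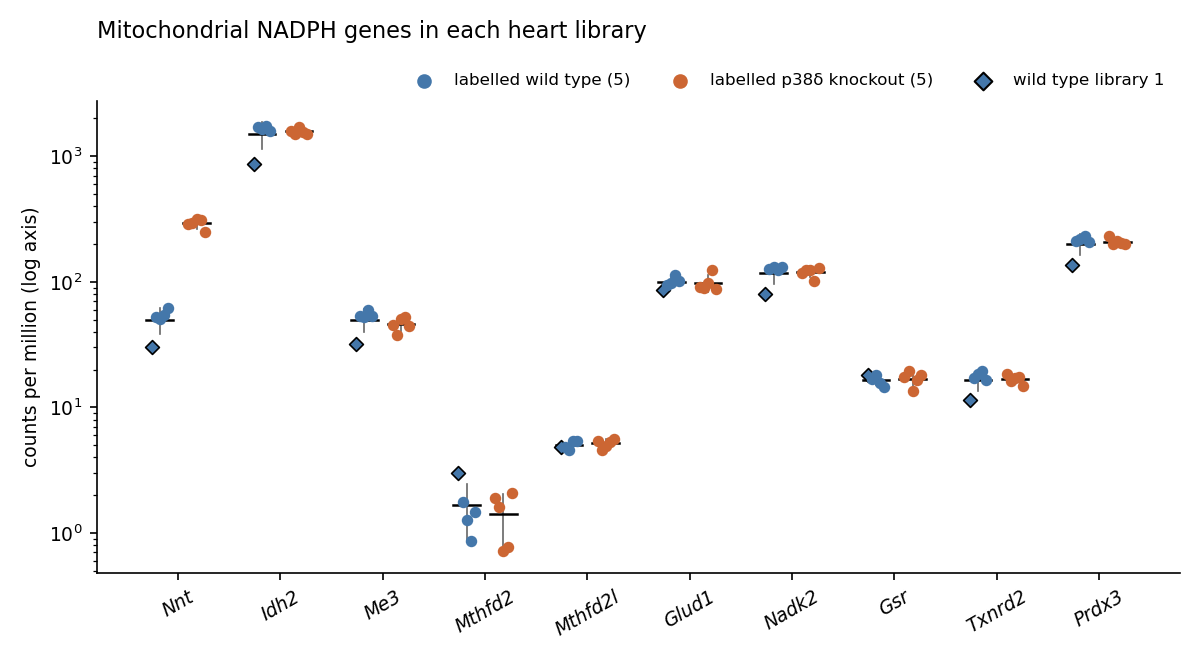
CPM of the 10 genes in each heart library on a log axis, with 1 point per library, a bar at the group mean and a line for the SD. Nnt is the gene whose 5 knockout points, 250 to 319 CPM, lie clear of its 5 wild type points, and wild type library 1 (diamond) is the lowest of all 10 libraries for 7 of the genes.

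Nnt shares few annotated bases with other genes. Paip1, on the opposite strand, covers 530 of its exon bases, or 3.98%, and the long noncoding RNA Gm9777, also on the opposite strand, covers 932, or 7.0%. The strand setting of the counting is not given in the sources used here. Gm9777 had 256 counts over all 10 libraries, equal to 0.524% of Nnt's counts. Paip1 was not small beside Nnt. It averaged 55.3 ± 7.44 CPM in wild type and 42.7 ± 3.1 CPM in knockout libraries (SD, n = 5 each), against 49.8 and 292 CPM for Nnt. Whether reads were shared between Paip1 and Nnt was not tested.

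Idh2, which makes NADPH from isocitrate in the matrix, was close between the groups. Wild type libraries held 864, 1692, 1631, 1736 and 1590 CPM, and knockout libraries 1601, 1510, 1693, 1564 and 1497 CPM. Library 1 was low and all the others lay between 1497 and 1736 CPM, with the groups overlapping. The log2 fold change was 0.07 (SE 0.18, 95% interval from -0.35 to 0.48), and -0.08 (SE 0.08) without wild type library 1 and knockout library 4. Of Idh2's annotated exon bases, 29.4% are shared with Zfp710 on the opposite strand.

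Within the wild type group Nnt and Idh2 were low in the same library. Wild type library 1 held 0.557 times the mean of the other 4 for Nnt and 0.52 times for Idh2. Expressed per 100 counts of Idh2, Nnt was 3.53, 3.10, 3.09, 3.13 and 3.85 in the wild type libraries. The same ratio was 17.9, 19.4, 18.8, 20 and 16.7 in the knockout libraries. Library 1 was no longer the lowest on this scale, and the coefficient of variation in the wild type group was 10.1%, against 23.2% for Nnt in CPM. Without library 1 it was already 8.6% for Nnt in CPM. The division by Idh2 was chosen after seeing the data. Idh2, Prdx3 and Nadk2 were themselves low in library 1, so the smaller spread is no separate result. The group means of the ratio were 3.34 ± 0.338 and 18.6 ± 1.29 (SD, n = 5 each), a 5.56-fold difference. With Prdx3 or Nadk2 as the denominator the fold was 5.70 and 5.93. Library 1 was still the lowest wild type library with these, at 22.3 Nnt per 100 counts of Prdx3 against 23 to 29.4, and at 38.2 per 100 counts of Nadk2 against 38.3 to 46.9.

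**Figure D2:**
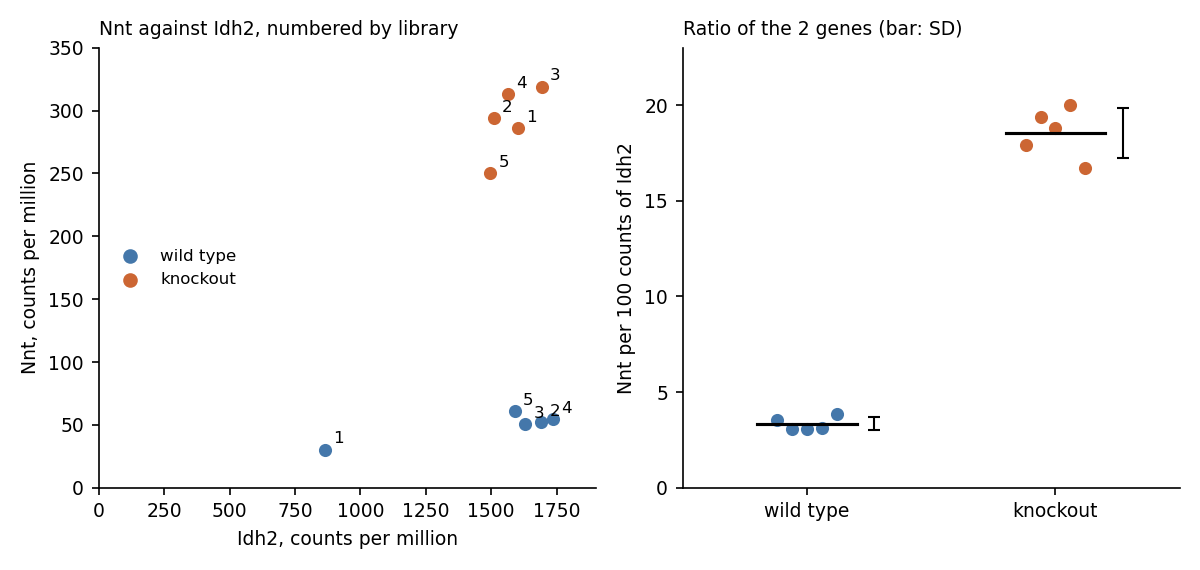
Left, Nnt against Idh2 in CPM for each library, numbered within its group; right, Nnt per 100 counts of Idh2, with group mean and SD. Both groups span similar Idh2 levels apart from wild type library 1 at 864 CPM, while the ratio is 3.09 to 3.85 in wild type and 16.7 to 20 in knockout libraries.

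Me3, the mitochondrial NADP-linked malic enzyme, stood at 32.0, 53.1, 52.1, 59.4 and 53.5 CPM in the wild type libraries. The knockout libraries held 44.9, 38, 50.4, 52.0 and 44.8 CPM. Each knockout library lay below wild type libraries 2 to 5, and above library 1. The log2 fold change was -0.12 (SE 0.15, 95% interval from -0.46 to 0.22). Without wild type library 1 and knockout library 4 it was -0.29 (SE 0.08). In that smaller fit Me3 was the 1 gene of the 9 with an unadjusted p under 0.05, as were 7.8% of all 16494 genes tested there, and it was not called.

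The folate enzymes were the least abundant. Mthfd2, a dehydrogenase and cyclohydrolase known best from growing cells, stood at 2.99, 1.76, 1.27, 0.866 and 1.47 CPM in the wild type libraries. The knockout libraries held 1.89, 1.62, 0.714, 0.779 and 2.07 CPM, on 15 to 69 counts each. This was the widest interval of the 10 genes, with a log2 fold change of -0.25 (SE 0.38, 95% interval from -1.13 to 0.63), and 0.22 without wild type library 1 and knockout library 4. Mthfd2 was also the 1 gene of the 10 that was highest among wild type hearts in library 1. Its paralogue Mthfd2l, the form found in adult tissues, ranged from 4.60 to 5.39 CPM in wild type and from 4.61 to 5.63 CPM in knockout libraries (log2 fold change 0.05, SE 0.10). Wild type library 1, at 4.88 CPM, lay inside the Mthfd2l range of the others.

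Glud1, which interconverts glutamate and 2-oxoglutarate with either nicotinamide cofactor, stood at 86.2, 94.9, 97.7, 114 and 101 CPM in wild type libraries. The knockout libraries held 90.2, 89.4, 97.8, 125 and 87.9 CPM, so that library 4 was the highest of all 10. The log2 fold change was -0.01 (SE 0.11, 95% interval from -0.27 to 0.25), and -0.16 (SE 0.07) without wild type library 1 and knockout library 4. Glud1 has identical or near-identical stretches in other genes, so its counts are uncertain to that extent. Shld2, on the opposite strand, shares 10.4% of Glud1's exon bases and held 2404 counts in all, equal to 7.81% of Glud1's total. Bcl7c on chromosome 7 matches Glud1 over 379 bases and held 2223 counts, or 7.22%, and the pseudogene Glud-ps held 63 counts, or 0.205%.

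Nadk2 is the mitochondrial NAD kinase, which makes NADP+ in the matrix. Its wild type libraries held 79.8, 127, 132, 123 and 130 CPM and its knockout libraries 117, 125, 124, 102 and 129 CPM. The groups overlapped, with library 1 the low value, and the log2 fold change was 0.01 (SE 0.13, 95% interval from -0.29 to 0.32).

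The 3 genes of thiol and peroxide reduction, which draws on NADPH, were also close between groups. Gsr, glutathione reductase, which serves both cytosol and mitochondria, averaged 16.6 ± 1.52 CPM in wild type and 17.0 ± 2.26 CPM in knockout libraries. Txnrd2, the mitochondrial thioredoxin reductase, averaged 16.6 ± 3.13 and 16.8 ± 1.45 CPM. Prdx3, the peroxiredoxin that reduces hydrogen peroxide in the matrix, averaged 202 ± 37.7 and 209 ± 12.7 CPM (SD, n = 5 each for all 3). The log2 fold changes were 0.03 (SE 0.10) for Gsr, 0.02 (SE 0.13) for Txnrd2 and 0.05 (SE 0.13) for Prdx3. Txnrd2 and Prdx3 were lowest in wild type library 1, at 11.4 and 136 CPM, and Gsr was not, at 18 CPM.

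Over the 9 genes other than Nnt the log2 fold changes ran from -0.25 to 0.07, with a median of 0.02. The median of all tested genes was -0.014. None of the 9 was called by edgeR or by DESeq2, and none had an unadjusted p under 0.05 by either tool, beside 0.353% called and 6.86% with such a p among all genes by edgeR, and 0.718% called by DESeq2. This does not show that their levels were equal. The 95% limits of the fold over wild type reached down to 0.457 and up to 1.55, in each case for Mthfd2. Of the 9, 6 lay above 0 and 3 below, which became 3 above and 6 below without wild type library 1 and knockout library 4. Scaling by library totals alone moved the median of all genes to -0.116 and put 8 of the 9 below 0, so no direction is given for them.

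**Figure D3:**
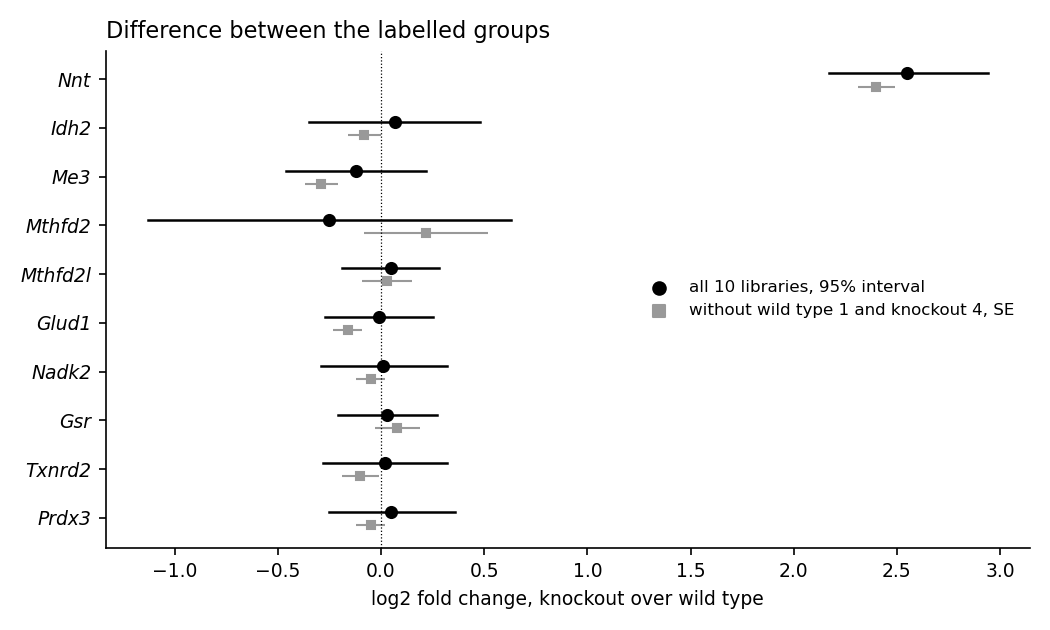
Fitted log2 fold change of each gene, knockout over wild type, with the 95% interval over all 10 libraries (circles) and the SE without wild type library 1 and knockout library 4 (squares). The Nnt interval runs from 2.17 to 2.94 and the intervals of the other 9 genes over all libraries include 0.

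Levels of different genes were compared as CPM per kilobase of annotated exon. In the wild-type-labelled hearts Idh2 was at 177 ± 42.7, Prdx3 at 123 ± 23, Nadk2 at 20.3 ± 3.74 and Glud1 at 14.4 ± 1.5 CPM per kilobase. Txnrd2 at 3.77 ± 0.71, Nnt at 3.74 ± 0.868 and Gsr at 2.40 ± 0.219 followed, then Me3 at 1.72 ± 0.359, Mthfd2l at 0.461 ± 0.0324 and Mthfd2 at 0.457 ± 0.220 (SD, n = 5). The ranges overlapped between Idh2 and Prdx3, Nadk2 and Glud1, Txnrd2 and Nnt, Nnt and Gsr, and the 2 folate genes. In the knockout-labelled hearts Nnt took the third place, at 22 ± 2.03 CPM per kilobase, with a range that overlapped that of Nadk2 at 20.4 ± 1.83. By this length the order of the other 9 genes was the same in both groups. The place of Me3 depended on the length used. With the canonical transcript it stood at 10.9 CPM per kilobase in wild type, above Txnrd2 at 8.56 and Gsr at 6.22. With the longest transcript Me3 and Txnrd2 changed places between the groups, with overlapping ranges. Over the 6 source enzymes, Nnt made up 1.89% of the summed CPM per kilobase in wild type and 9.79% in knockout libraries. Idh2 made up 89.5% and 82.7%. With the canonical transcript as the length, Nnt's shares were 1.47% and 7.75%, and with the longest transcript 2.88% and 14.3%. Transcript shares say nothing of enzyme activity or flux.

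The pathway around these genes was read from 5 lists of 66 genes, 65 of them tested. None was called in either direction by edgeR (2 had an unadjusted p under 0.05) or by DESeq2. Their log2 fold changes lay above 0 for 33 and below 0 for 32, with a median of 0.00, and Dmgdh was too low to test.

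The list labelled cytosolic counterparts holds genes acting outside the mitochondria, not all of them in the cytosol. Of these, 0 of 11 passed the test, and the median log2 fold change was -0.10. The 2 with the smallest p were Idh1, the cytosolic isocitrate dehydrogenase, at -0.24 (SE 0.13, adjusted p = 0.74 by edgeR), and Aldh1l1, a cytosolic folate dehydrogenase, at -0.40 (SE 0.24, adjusted p = 0.75 by edgeR). The values were -0.14 and -0.08 without wild type library 1. That library was the highest wild type library for 7 of the 11. G6pdx, which opens the pentose phosphate pathway and was picked here after its values were seen, held 30.8 CPM in that library and 4.70 to 7.49 CPM in the other 9. Without wild type library 1 and knockout library 4 the list median was 0.05.

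The mitochondrial folate list had 0 of 9 tested genes called and a median of -0.11. Mthfd1l, the formate-releasing synthetase, stood at -0.45 (SE 0.28) and Aldh1l2, the mitochondrial NADP-linked formyltetrahydrofolate dehydrogenase, at -0.22 (SE 0.16), with adjusted p = 0.753 and 0.79 by edgeR. They stood at -0.15 and -0.11 without wild type library 1. Of the 12 thiol and peroxide genes 0 were called, with a median of 0.06. Msrb3, a methionine sulfoxide reductase, went from 99.9 ± 10.6 to 115 ± 8.26 CPM (SD, n = 5 each, log2 fold change 0.20, adjusted p = 0.714 by edgeR). It was lowest in wild type library 1, at 81.7 CPM, and its log2 fold change was 0.14 without that library. Gpx1, a glutathione peroxidase, stood at -0.34 (SE 0.20, adjusted p = 0.75 by edgeR), and at -0.09 without wild type library 1. Of the 10 reactions that can draw on NADPH 0 were called, with a median of -0.04. Mecr, of mitochondrial fatty acid synthesis, stood at -0.12 (SE 0.10, adjusted p = 0.818 by edgeR).

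The citrate cycle and its neighbouring NAD-linked dehydrogenases had 0 of 23 genes called and a median of 0.03. Dlst, a subunit of 2-oxoglutarate dehydrogenase, stood at 0.18 (SE 0.16, adjusted p = 0.843 by edgeR), and Sdhc, a subunit of succinate dehydrogenase, at 0.14 (SE 0.14, adjusted p = 0.85 by edgeR). They stood at 0.08 and 0.03 without wild type library 1. Wild type library 1 was the lowest wild type library for 22 of these 23 genes. Without it and knockout library 4 the median was -0.14, with 2 genes above 0 and 21 below. In the thiol and peroxide list, library 1 was the lowest for 11 of 12, and the median without both libraries was -0.04. In the folate and NADPH-drawing lists the medians without both were -0.15 and -0.11.

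**Figure D4:**
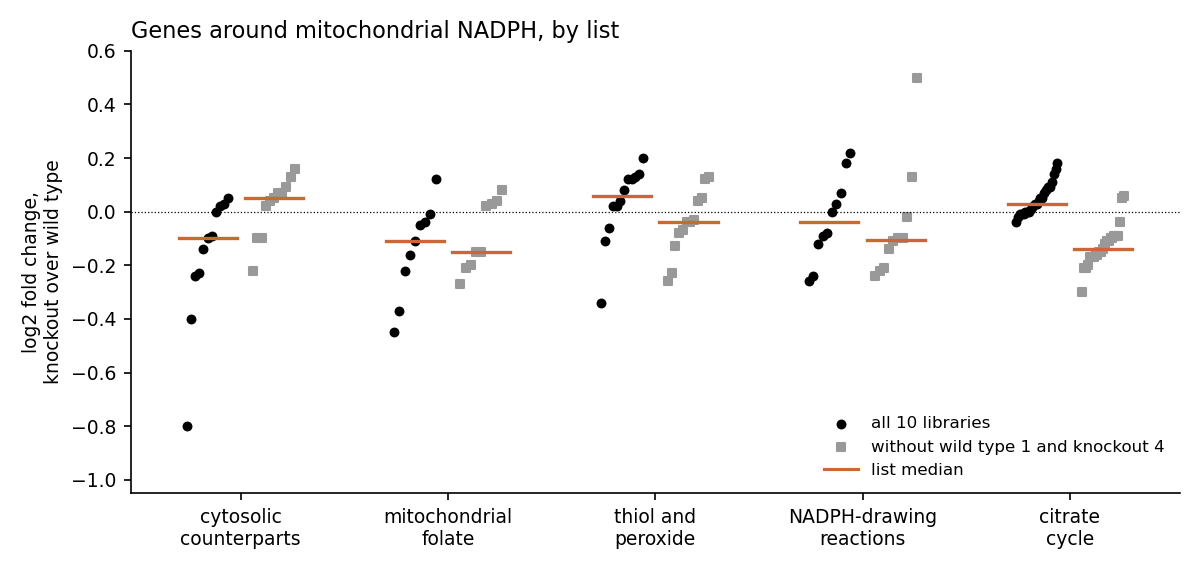
Log2 fold change of each tested gene in the 5 lists, knockout over wild type, over all 10 libraries (black circles) and without wild type library 1 and knockout library 4 (grey squares), with list medians as bars. Medians lie between -0.11 and 0.06 over all libraries and shift down in 4 lists and up in the cytosolic one when both libraries are left out, for the citrate cycle from 0.03 to -0.14.

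None of Nnt's tested neighbours on chromosome 13 was called by edgeR. Within 2 Mb there were 18 such genes. Of these, 5 had an unadjusted p under 0.05, beside 6.86% of all tested genes, and 1 was called by DESeq2. In 0 of the 18 were the groups free of overlap, beside 1.78% of all genes. Paip1 (chromosome 13, 119564882 to 119594754, plus strand), which encodes a partner of the poly(A)-binding protein, has its outermost start inside Nnt's annotated span. It stood at 42.5, 57.2, 57.6, 62.0 and 57.0 CPM in wild type and 45.6, 39.2, 40.5, 46.2 and 41.7 CPM in knockout libraries. Every knockout library lay below wild type libraries 2 to 5, and library 1 alone made the groups overlap. The log2 fold change was -0.37 (SE 0.10, adjusted p = 0.38 by edgeR), and -0.45 without wild type library 1, where it passed the test (adjusted p = 0.00677 by edgeR). Without wild type library 1 and knockout library 4 it was -0.48 (adjusted p = 0.00168 by edgeR).

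On the other side the nearest tested gene outside Nnt's own span was Fgf10, a fibroblast growth factor, at a log2 fold change of -0.77 (SE 0.66, adjusted p = 0.824 by edgeR). Its level was 2.33 CPM in wild type library 1 and 0.24 to 0.599 CPM in the other 9 libraries. Without library 1 the direction turned, to 0.47 (adjusted p = 0.912 by edgeR). The next genes were picked after their values were seen. Gm53794, a long noncoding RNA, held 19.3, 28.6, 15.7, 19.2 and 21.1 CPM in wild type and 36.3, 46.7, 35.2, 44.4 and 22.2 CPM in knockout libraries. Knockout library 5 was the 1 that lay inside the wild type range. Its log2 fold change was 0.83 (SE 0.20), not called by edgeR (adjusted p = 0.314) and called by DESeq2 (adjusted p = 0.0137), and without knockout library 5 called by edgeR (adjusted p = 0.0371). Tmem267 stood at -0.98 (SE 0.28, adjusted p = 0.534 by edgeR) and Ccl28 at -1.21 (SE 0.46, adjusted p = 0.674 by edgeR). Ccl28 rested on 5 to 81 counts per library and was highest in wild type library 1. Without that library Tmem267 stood at -0.96 and Ccl28 at -0.91. Mrps30, a mitochondrial ribosome subunit, stood at -0.01 (SE 0.13).

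**Figure D5:**
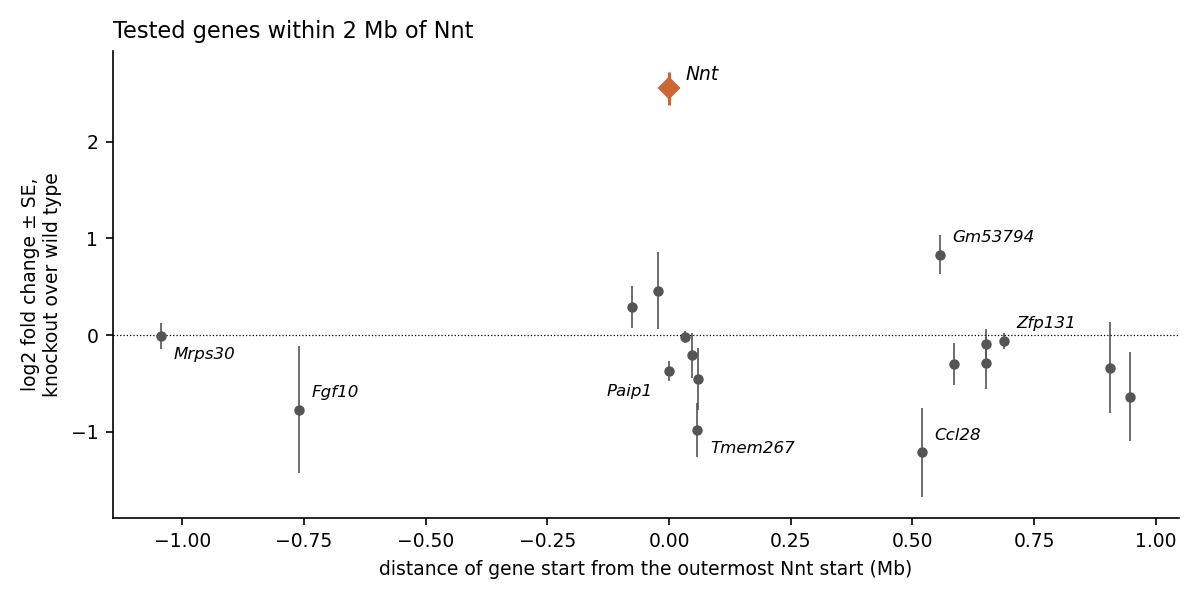
Log2 fold change with SE, knockout over wild type, of 17 of the 18 tested genes within 2 Mb of Nnt (grey) against the distance of their start from the outermost Nnt start, with Nnt itself as a diamond. Nnt stands at 2.55, and the other genes plotted lie between -1.21 and 0.83, Paip1 beside it at -0.37.

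Among 12238 named genes with a mean of at least 1 CPM, those most like Nnt over the 10 libraries were Glo1, Btbd9, Mllt10, Hmga1b and Ppil1. Pearson's r of log2(CPM + 1) with Nnt was 0.991, 0.979, 0.976, 0.974 and 0.974 (Spearman's rho 0.855, 0.842, 0.891, 0.842 and 0.939). All 5 were higher in every knockout library than in every wild type library, so these values follow the split between the groups, and the libraries share their scaling. Glo1, Btbd9 and Ppil1 lie on chromosome 17, Mllt10 on chromosome 2 and Hmga1b on chromosome 11. Glo1, a glyoxalase, went from 77.8 ± 7.78 to 231 ± 13.9 CPM and Mllt10 from 32.1 ± 1.04 to 36.9 ± 0.52 CPM (SD, n = 5 each). Hmga1b is a near copy of Hmga1 and can share reads with it, so its value is uncertain.

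Taken as deviations from each group's mean, the closest genes were Zfp366, Esrrb, mt-Nd4, Myo10 and Rgs5, with r from 0.964 to 0.979 over the 10 libraries. Each was lowest in wild type library 1: mt-Nd4, a complex I subunit encoded in mitochondrial DNA, held 22902 CPM there and 35145 to 40461 CPM in the other 9. Among the 9 genes on the same measure r was 0.913 for Idh2, 0.861 for Me3, 0.854 for Prdx3, 0.848 for Txnrd2 and 0.752 for Nadk2. It was 0.564 for Glud1, 0.111 for Mthfd2l, -0.528 for Gsr and -0.757 for Mthfd2. Without wild type library 1 and knockout library 4, r was 0.338 for Idh2, 0.211 for Me3, 0.039 for Prdx3, 0.206 for Txnrd2 and -0.24 for Nadk2. For the other members r was then 0.444 for Glud1, -0.092 for Mthfd2l, -0.701 for Gsr and -0.529 for Mthfd2. For the 5 closest genes it was 0.799 to 0.939, at places 10 to 149. Those 5 had been picked for a high r over all 10 libraries, which include the ones kept here. Their r is therefore not comparable with that of the members.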

How the data were processed

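Whole-heart RNA was sequenced in 10 libraries. STAR 2.5.2 placed the reads on GRCm39, per the labels' protocols, and RSEM 1.3.0 is listed by the submitters' processing notes. The authors deposited expected counts per gene, which were whole numbers. Of the annotation release and the strand setting, nothing is given in the sources used here. Because RSEM estimates how to split reads that fit more than 1 gene, overlapping and near-identical genes are uncertain.

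Groups came from the genotype label. The labels do not state separate litters or batches, so a p-value here reflects only how far these samples spread, which may be technical. Of 78298 identifiers, 78168 were found in GENCODE release 39. No pair of libraries within a group agreed within sampling noise (20 pairs, lowest chi-square over its degrees of freedom 8.95, highest 162).

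Genes were tested with edgeR 4.0.16 (quasi-likelihood, R 4.3.3) under TMM scaling, a minimum count of 10, robust dispersions, no covariate, and Benjamini-Hochberg adjustment over 16700 genes at 0.05. A called gene passed that threshold. Standard errors are the absolute log2 fold change over the square root of F, and 95% intervals use 8 degrees of freedom. CPM used TMM on the totals of tested genes. Precision for rarely counted genes is bounded by the library totals. BLAST 2.17.0 searched for copies of 95% identity over 200 bases. Alternatives were DESeq2 1.42.0, limma 3.58.1 voom with and without quality weights, other scalings and filters, other gene lengths, 1 surrogate variable from sva 3.50.0, and leaving out libraries. The procedure was tested on simulated data.

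The members and gene lists were chosen with earlier results of these data known, and no p is given for members. Named are all members, Mapk13, the called genes and the 2 with the smallest p in each list, the called and nearest tested genes beside Nnt, and the 5 genes most like Nnt by either measure. Myh6, Dmgdh, G6pdx, Gm9777, Zfp710, Shld2, Bcl7c, Glud-ps, Gm53794, Tmem267, Ccl28 and Mrps30 were named after their values were seen. A few results are not reported here, also where the naming rule would include them.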

Additional observations from a re-analysis of the deposited data

Results flagged for a closer look

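In 5 of the 20 sets of 5 libraries examined for the 10 genes, 1 library stood outside the other 4 by more than Dixon's critical value of 0.71, the gap being divided by the whole range. Chance flags about 1 in 20 for a single set. The 20 sets come from the same libraries and are not independent, so the 5 flags cannot be weighed against that rate. Wild type library 1 was the low library for 4 of them. Idh2 was at 864 CPM there against 1590 to 1736 CPM in the other wild type libraries, and Nadk2 at 79.8 against 123 to 132 CPM. Me3 was at 32.0 CPM against 52.1 to 59.4 CPM, and Prdx3 at 136 CPM against 208 to 233 CPM. The ventricular cardiomyocyte marker sum was also lowest in this library, and the airway, atrial, skeletal muscle, fat and macrophage sums were highest. Their part in these values was not tested. The fifth was Glud1 in knockout library 4, at 125 CPM against 87.9 to 97.8 CPM, and that library had the highest ventricular marker sum, 74110 CPM. The part of that difference in the Glud1 value was not tested.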

How the results depend on the processing

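The count of called genes was 59, and 118 with DESeq2, while leaving out 1 library gave 47 to 75. Nnt kept its direction in all 23 alternatives run, with log2 fold changes from 2.39 to 2.64, and was the 1 member called wherever a test was made. The 65 tested list genes had 0 calls in each alternative. Genes near Nnt had 0 calls, but 1 with DESeq2, with 1 surrogate variable, with library totals alone, with voom quality weights and without wild type library 1 and knockout library 4, and 0 to 1 when 1 library was left out. That gene was Gm53794 with DESeq2 and without knockout library 5, and Paip1 otherwise. Nnt was at place 6 by level per length in wild type, and at place 5 with the longest transcript, with the canonical transcript (chosen after seeing the data) and without both libraries, or 5 to 6 when 1 library was left out. Of the 5 genes most like Nnt, 1 was shared with Spearman's rho and 1 without both libraries, and 2 to 5 when 1 was left out. By deviations 1 was shared with Spearman's rho and 0 without both, and 0 to 4 when 1 was left out. The cause of these shifts was not tested. No paired analysis was possible because the knockout titles carry no replicate number and numbers given in accession order pair nothing.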
